A study of Saccharomyces cerevisiae W303 with 30 samples.

Results

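Nascent RNA of the undepleted Med16 degron strain, treated with the vehicle DMSO, was set against that of the untreated wild type (WT), with 3 libraries in each group. These 6 of the 30 libraries of the series were taken by their titles, and all were made in the same sequencing run. WT was a W303 strain of *Saccharomyces cerevisiae* (MATa, with the markers ade2-1, can1-100, his3-11,15, trp1-1 and ura3-1 and a mutant *leu2* allele), and it received neither auxin nor DMSO. The Med16-AID strain carries the same listed markers, *MED16* joined at its end to 3xV5-IAA7 with kanMX6, and the cassette pGPD1-OsTIR1-LEU2 at *leu2*. In this cassette a promoter labeled pGPD1 drives the rice F-box protein TIR1. It was given DMSO diluted 1 in 2000 for 30 min. Both strains were grown at 30°C in YPD, and RNA made during the last 6 min was labeled with 4-thiouracil (4tU), pulled down and sequenced (nsRNA-seq). The pair therefore differs in the tag, the TIR1 cassette, the stock it was built in (a W303 strain already holding the TIR1 cassette) and the vehicle, and these cannot be told apart. For a second look, Med16-AID given 0.5 mM of the auxin 3-IAA for 30 min was set against the untreated *med16*Δ strain (the same markers, lys2 and med16Δ::LEU2), with 3 libraries each from the same run.

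Mediator carries signals from DNA-bound activators to RNA polymerase II, and Med16 joins its tail module, which activators contact, to the rest of the complex. In an auxin-inducible degron, auxin brings the tagged protein to TIR1, which marks it for destruction, and cells given only the vehicle serve as the undepleted control. In yeast, genes for stress proteins and stored carbohydrate are generally transcribed in opposition to those for ribosome assembly and growth, and nutrient genes follow regulators that sense phosphate, sulfur, nitrogen, amino acids and glucose. The counts measure RNA, so they do not show how much Med16 protein the tagged strain held.

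The 2 baselines stood far apart. Of 5710 genes tested, 2806 (49.1%) differed at an adjusted p under 0.05 in edgeR's quasi-likelihood test, here termed called: 1482 (26.0%) were higher and 1324 (23.2%) lower in Med16-AID. Most of these differences were small, with a median size of 0.47 on the log2 scale, and 285 genes (4.99%) were called and changed more than 2-fold, 193 (3.38%) higher and 92 (1.61%) lower. In 60.1% of all genes tested the 3 libraries of each strain did not overlap. Any list of genes is read below against these shares and against the median of all genes, which was 0.01. The split of the calls rests on the scaling. When libraries were scaled to their total on genes in place of TMM, 73.3% of the calls were higher in Med16-AID in place of 52.8%, and the median of all genes was 0.15, so every difference given here is relative to the bulk of genes. The spike-in of *S. pombe* cells was not used here.

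Depth was alike, with 4324622 to 5041719 sense counts on genes per WT library and 4283184 to 4743626 per Med16-AID library, but library make-up was not. In WT, 23.0 to 27.3% of all reads were counted on genes and 21.8 to 24.3% did not map. In Med16-AID these shares were 30.8 to 34.7% and 18.2 to 20.8%. Reads that mapped to several places made up 48.0 to 52.3% in WT and 40.8 to 47.3% in Med16-AID. They are not in the gene counts, which also touches genes with near-identical copies. The 10 most abundant genes took 5.20 to 5.37% of the counts in WT and 4.09 to 4.53% in Med16-AID. The part of these gaps in the results was not tested. The median difference of each nuclear chromosome lay between -0.04 and 0.07. As each library comes from many cells, fewer cells in a state and less RNA per cell cannot be told apart.

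**Figure D1:**
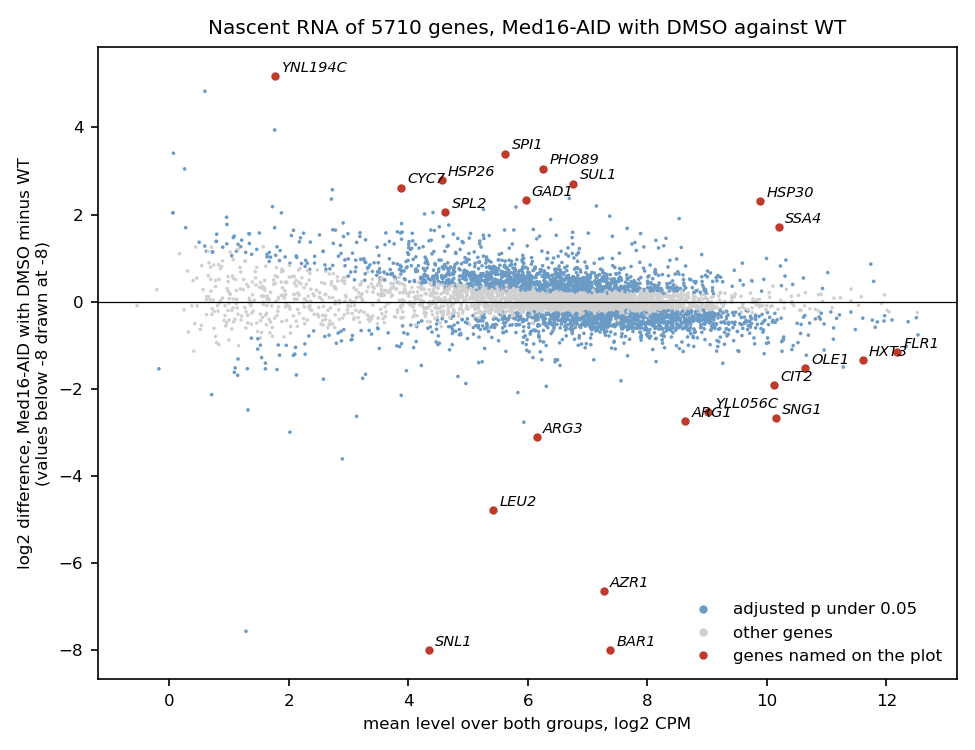
Log2 difference between Med16-AID with DMSO and WT (y axis) against the mean level over both groups in log2 CPM (x axis), one point per gene. Called genes are blue, and the falls of *AZR1*, *LEU2*, *BAR1* and *SNL1* are the lowest of the genes named on the plot, whereas the leading rises such as *SPI1* and *PHO89* lie near 3.

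The deepest falls were at a few loci. *BAR1* (YIL015W, the protease that cleaves α-factor, chromosome IX 322342 to 324105 in R64) had 1352, 1292 and 1587 counts in the WT libraries and 0 in each of the 3 Med16-AID libraries. *SNL1* (YIL016W, 321454 to 321933), which lies beside it, had 196, 157 and 160 counts in WT and again 0 in all 3 Med16-AID libraries. The next gene, YIL014C-A (325212 to 325526), had 20, 18 and 24 against 0 in all 3. Taking 3 counts in 1 library as the floor, *BAR1* was at least 484-fold and *SNL1* at least 58.9-fold lower in Med16-AID. These were the only genes with 30 or more counts in the WT libraries together and none in the 6 Med16-AID libraries with DMSO or 3-IAA, and no gene met the reverse rule. The genes on either side, *VID28* (416, 372 and 444 counts in WT and 675, 676 and 727 in Med16-AID) and *MNT3* (734, 746 and 866 and 627, 689 and 681), were counted in every library. *YIL014C-A*, *VID28* and *MNT3* were singled out after their values were seen. The 3 genes without counts were also at 0 in the 9 DMSO libraries of the other degron strains, Med15-AID, Med15/16-AID and Mot1/Med16-AID, and were counted in *med16*Δ. The listed genotypes name no change at this place, and RNA counts alone do not show whether its DNA is there.

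*AZR1* (YGR224W, a plasma membrane transporter for azoles and acids, chromosome VII 942806 to 944647) had 1205, 1205 and 1466 counts in WT and 15, 13 and 13 in Med16-AID, a log2 difference of -6.64 ± 0.14 (SE; adjusted p = 1.1e-15). Unlike the *BAR1* stretch, it held 169 to 191 CPM (counts scaled to a library total of 1000000) in Med15-AID, 235 to 269.8 in Med15/16-AID and 360.1 to 384 in Mot1/Med16-AID with DMSO, where all libraries were scaled together across 2 sequencing runs. On the opposite strand of *AZR1* the counts were higher in Med16-AID, 76 to 83 per library against 14 to 21 in WT. With both strands counted together the difference was -3.90.

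The engineered loci came next. *LEU2* (YCL018W, chromosome III 91324 to 92418), whose mutant allele both strains list, had 356, 360 and 325 counts in WT and 16, 13 and 11 in Med16-AID (-4.79 ± 0.25, adjusted p = 3.8e-10), although the listed cassette of the degron strain holds a *LEU2* marker. *MED16* itself (YNL236W, chromosome XIV 206930 to 209854), which carries the tag, had 783, 816 and 967 counts in WT and 681, 821 and 769 in Med16-AID, or 202 ± 14.8 CPM (SD, n = 3) in WT and 168 ± 15.7 CPM in Med16-AID. That is a small fall (-0.27 ± 0.09, adjusted p = 0.019), and the groups did not overlap in CPM. It missed the threshold under scaling to library totals (-0.14), with both strands counted together (-0.19), and without Med16-AID replicate 1 (-0.19), WT replicate 2 (-0.25) or WT replicate 3 (-0.23). Beside *MED16*, *YTP1* was at -0.05 (adjusted p = 0.81), *YNL234W* at 0.36 (adjusted p = 0.007) and *BNI4* at -0.32 (adjusted p = 0.018). Beside *LEU2*, *NFS1* was at 0.03 (adjusted p = 0.78) and the Ty element gene *YCL019W* at -0.50 (adjusted p = 0.046). *BNI4* and *YCL019W* missed the threshold under scaling to library totals (-0.19 and -0.37), without Med16-AID replicate 1 (-0.19 and -0.26), WT replicate 2 (-0.29 and -0.47) or WT replicate 3 (-0.31 and -0.41), and *YCL019W* also with the replicate number as a block (-0.50). Among the listed markers that the strains share, *CAN1*, the arginine permease, fell (-0.95 ± 0.10, adjusted p = 3.1e-06) and *URA3* rose (0.45 ± 0.09, adjusted p = 6.4e-04), while *ADE2* (-0.21, adjusted p = 0.057), *HIS3* (-0.15, adjusted p = 0.46) and *TRP1* (-0.16, adjusted p = 0.43) did not pass the test. Of the genes listed for their promoters, *GPD1* was at -0.75 (adjusted p = 4.2e-05), *TEF1* at -0.78 (adjusted p = 1.7e-05) and *TDH3* at -0.25 (adjusted p = 0.14). The promoter of the TIR1 cassette is known here by its label pGPD1 alone, so its match to the gene *GPD1* is not settled. *TEF1* has a near-identical copy, *TEF2*, so that the split of their reads is uncertain.

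**Figure D2:**
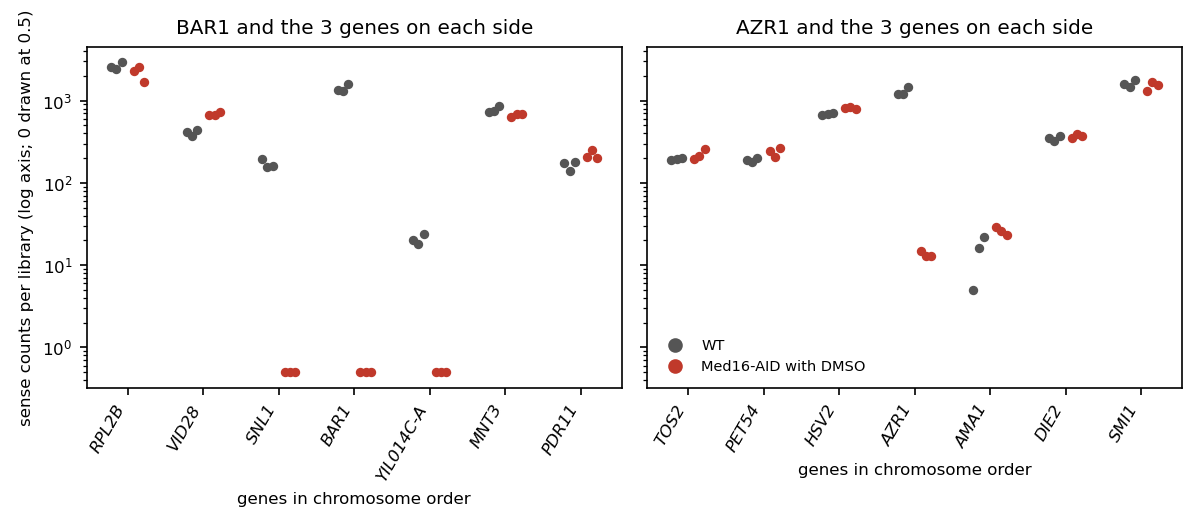
Sense counts per library (log axis, 0 drawn at 0.5) of *BAR1* and *AZR1* with the 3 genes on each side, in chromosome order, for the 3 WT and 3 Med16-AID DMSO libraries. *SNL1*, *BAR1* and *YIL014C-A* have no count in Med16-AID, *AZR1* keeps 13 to 15, and the outer genes are counted in both strains.

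Apart from these loci, the general stress list had the highest median of the lists described. Its 30 genes included many that Msn2 and Msn4 switch on under many stresses, and *MSN2* itself. Of the 30, 23 were higher and 1, *MSN2*, lower, with a median of 1.28 against 0.01 over all genes, and 18 rose more than 2-fold. The list median in each Med16-AID library, relative to the WT mean, was 1.46, 1.11 and 1.09, while the WT libraries lay between -0.18 and 0.14. *SPI1*, a stress-induced cell wall protein, was at 12.1, 7.93 and 5.72 CPM in WT and 116, 76.9 and 77.8 CPM in Med16-AID (3.40 ± 0.22, adjusted p = 1.1e-08). The first Med16-AID library was the highest, and the lowest Med16-AID library still exceeded the highest of WT more than 6-fold. *GAD1*, glutamate decarboxylase, was at 22.7, 22.0 and 17.2 CPM in WT and 114, 98.5 and 100.1 CPM in Med16-AID (2.34 ± 0.13, adjusted p = 1.7e-09). *HSP30*, a membrane protein that restrains the proton pump, was at 369, 323 and 256 CPM in WT and 1622, 1594 and 1506 CPM in Med16-AID (2.32 ± 0.11, adjusted p = 1.5e-10). Whether *HSP30* answers to Msn2 and Msn4 was not tested. Each gene stood apart between strains in all 6 libraries, as did *SDP1*, a stress-induced phosphatase (2.35 ± 0.36, adjusted p = 7.5e-05), and *SOL4*, of the pentose phosphate path (2.57 ± 0.29, adjusted p = 3.9e-06). The regulators did not move with the rest of the list. *MSN2*, its lower member, was at -0.47 ± 0.14 (adjusted p = 0.012), though short of the threshold without Med16-AID replicate 1 (-0.33) and under scaling to library totals (-0.34). *MSN4* was at 0.12 (adjusted p = 0.3).

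Chaperones were split. Of 30 heat shock chaperones 14 were higher and 5 lower, with a median of 0.24. *HSP26*, a small heat shock protein, was at 8.05, 5.37 and 4.40 CPM in WT and 64.2, 28.9 and 30.5 CPM in Med16-AID (2.80 ± 0.34, adjusted p = 9.2e-06), and the first Med16-AID library held more than the other 2. *SSA4*, the inducible cytosolic member of its chaperone family, was at 758, 466 and 419 CPM in WT and 1977, 1757 and 1658 CPM in Med16-AID (1.72 ± 0.27, adjusted p = 1.1e-04). *SSE2* (1.45 ± 0.15, adjusted p = 1.4e-06) and *HSP42* (0.99 ± 0.13, adjusted p = 2.4e-05) rose too, while the ribosome-bound chaperones *SSB1* (-0.46 ± 0.09, adjusted p = 9.9e-04) and *SSB2* (-0.36 ± 0.09, adjusted p = 0.0036) fell, as did the regulator *HSF1* (-0.36 ± 0.10, adjusted p = 0.0086), which missed the threshold under scaling to library totals (-0.22). The list had 20 higher and 2 lower under scaling to library totals, 12 higher and 3 lower without Med16-AID replicate 1, WT replicate 2 or WT replicate 3 and 14 higher and 3 lower without WT replicate 1.

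Genes against oxidants went both ways, 13 of 27 higher and 6 lower, with a median of 0.36, which was 0.13 without Med16-AID replicate 1 (10 higher and 5 lower). The list median was 0.62, 0.38 and 0.06 in the 3 Med16-AID libraries. The peroxidases *TSA2* (1.55 ± 0.18, adjusted p = 7.9e-06) and *CCP1* (1.11 ± 0.11, adjusted p = 1.3e-06), the sulfiredoxin *SRX1* (1.46 ± 0.27, adjusted p = 4.4e-04) and the glutaredoxin *GRX1* (1.12 ± 0.13, adjusted p = 8.4e-06) rose. *SRX1* varied widely, at 68.8, 47.7 and 26.4 CPM in Med16-AID against 14.9, 14.6 and 22.2 CPM in WT. Of the 6 members that fell, the 4 with the largest falls were transporters and oxidoreductases, *FLR1*, *ATR1*, *OYE3* (-0.77 ± 0.11, adjusted p = 4.3e-05) and *OYE2* (-0.37 ± 0.09, adjusted p = 0.0023). The regulator *YAP1* was at -0.18 (adjusted p = 0.051).

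Genes that store and release glucose rose with the stress genes. Of 18 glycogen and trehalose genes 13 were higher and 0 lower, with a median of 0.56. *GPH1*, glycogen phosphorylase, was at 9.23, 7.93 and 5.94 CPM in WT and 33.9, 32.4 and 26.6 CPM in Med16-AID (2.01 ± 0.24, adjusted p = 8.0e-06). *TSL1*, of the trehalose synthase complex, was at 64.1, 55.2 and 41.8 CPM in WT and 177, 149 and 159 CPM in Med16-AID (1.59 ± 0.16, adjusted p = 1.0e-06). *GAC1* (1.43 ± 0.17, adjusted p = 9.9e-06), which directs a phosphatase to glycogen synthase, and the branching enzyme *GLC3* (1.23 ± 0.26, adjusted p = 0.0012) stood apart between strains as well. With reads of both strands counted together, *GAC1* was at 0.17 and did not pass the test, and *GPH1* was at 0.42. The gene of largest rise by fitted value, *YNL194C*, an eisosome membrane protein, had 90 counts in Med16-AID against 2 in WT, a ratio of 42.2 with a 95% counting interval of 11.3 to 353. With both strands counted together its difference was 0.89, and its antisense counts were 18 to 32 per WT library and 21 to 26 per Med16-AID library. The other leading rises outside these lists were *STF2*, a hydrophilin, at 38.6, 32.5 and 29.7 CPM in WT and 206, 153 and 161 CPM in Med16-AID (2.37 ± 0.14, adjusted p = 2.9e-09), and *CPP3*, at 0.947, 0 and 0.22 CPM in WT and 7.48, 6.70 and 5.05 CPM in Med16-AID (3.94 ± 0.76, adjusted p = 5.6e-04, and 5.48 without WT replicate 1).

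The motif CCCCT, which Msn2 and Msn4 bind, lay on either strand within the 300 bases before the start codon in 19 of 30 (63.3%) general stress genes and 10 of 18 (55.6%) glycogen and trehalose genes, against 1252 of 5552 (22.6%) of all genes tested. It lay in 469 of 1469 (31.9%) of the genes called higher, 206 of 1302 (15.8%) of those called lower and 577 of 2781 (20.7%) of the others. A match is a description of these letters and not a shown site. The windows of the 2 general stress genes with a match and the largest rise are given from the RefSeq R64 sequence, *SPI1* at chrV:468070-468369, plus strand, and *SOL4* at chrVII:985672-985971, plus strand, each read toward its start codon with the motif in capitals.
SPI1: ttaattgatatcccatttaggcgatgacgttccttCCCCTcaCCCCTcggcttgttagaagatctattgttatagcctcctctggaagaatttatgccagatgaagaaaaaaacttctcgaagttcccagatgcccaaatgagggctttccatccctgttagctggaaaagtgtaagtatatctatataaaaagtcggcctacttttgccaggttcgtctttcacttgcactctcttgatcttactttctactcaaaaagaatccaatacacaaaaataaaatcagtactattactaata
SOL4: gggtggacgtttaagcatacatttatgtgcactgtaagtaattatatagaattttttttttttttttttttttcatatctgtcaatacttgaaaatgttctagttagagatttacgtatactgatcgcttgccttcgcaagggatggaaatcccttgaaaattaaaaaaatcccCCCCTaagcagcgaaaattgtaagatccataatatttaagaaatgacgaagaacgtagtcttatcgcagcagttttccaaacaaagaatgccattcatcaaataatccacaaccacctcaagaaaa

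**Figure D3:**
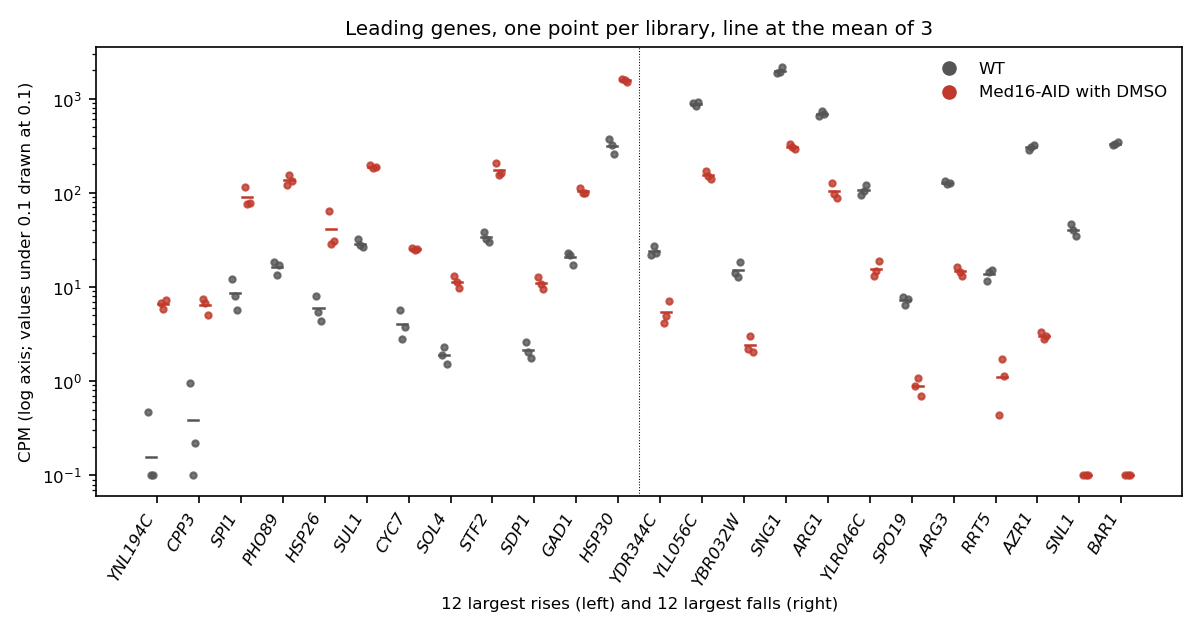
Level in CPM (log axis, values under 0.1 drawn at 0.1) of the 12 largest rises and the 12 largest falls among called genes whose groups do not overlap (marker loci left out), one point per library, with lines at the means of the 3 WT (grey) and 3 Med16-AID DMSO (red) libraries. *SNL1* and *BAR1* sit at 0 in Med16-AID, and *PHO89*, *SUL1* and *HSP30* each form a tight cluster above WT.

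The phosphate starvation genes were higher as a group. Of 20 members 14 were higher and 1 lower, with a median of 0.52, and 7 rose more than 2-fold. *PHO89*, the sodium-coupled phosphate carrier, was at 18.5, 13.6 and 17.2 CPM in WT and 122, 156 and 132 CPM in Med16-AID (3.05 ± 0.15, adjusted p = 1.5e-10). *SPL2*, which restrains low-affinity phosphate uptake, was at 10.6, 9.98 and 8.14 CPM in WT and 46.4, 40.8 and 31.4 CPM in Med16-AID (2.05 ± 0.17, adjusted p = 1.6e-07). The 2 groups were far apart for both. *PHM8*, a phosphatase that frees phosphate in starved cells, was at 36.4, 38.4 and 31.9 CPM in WT and 136, 128 and 129.7 CPM in Med16-AID (1.89 ± 0.11, adjusted p = 1.6e-09), and *PHM6* rose as well (1.23 ± 0.20, adjusted p = 1.4e-04). The member that fell was *PHO4*, the transcription factor of the pathway (-0.90 ± 0.18, adjusted p = 9.6e-04), and *PHO81*, which inhibits the kinase of Pho4, was at -0.23 (adjusted p = 0.17). The list had 14 higher and 4 lower without Med16-AID replicate 3. The Pho4 core CACGTG, which is its own reverse complement, lay in the 300-base windows of 9 of 20 (45.0%) list members against 200 of 5552 (3.60%) of all genes. It was about as frequent among the genes called higher, 62 of 1469 (4.22%), as among those called lower, 53 of 1302 (4.07%). The sulfur and methionine list, lower on balance, held it in 11 of 33 (33.3%) members. The windows of *SPL2* (chrVIII:375101-375400, minus strand) and *PHM6* (chrIV:1022322-1022621, minus strand), the risen members with a match and the largest change, follow with CACGTG in capitals.
SPL2: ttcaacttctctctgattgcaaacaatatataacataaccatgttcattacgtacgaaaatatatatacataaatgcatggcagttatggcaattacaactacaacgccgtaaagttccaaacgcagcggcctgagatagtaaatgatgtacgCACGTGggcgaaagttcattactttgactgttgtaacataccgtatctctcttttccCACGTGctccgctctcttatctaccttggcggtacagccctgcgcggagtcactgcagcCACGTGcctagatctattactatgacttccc
PHM6: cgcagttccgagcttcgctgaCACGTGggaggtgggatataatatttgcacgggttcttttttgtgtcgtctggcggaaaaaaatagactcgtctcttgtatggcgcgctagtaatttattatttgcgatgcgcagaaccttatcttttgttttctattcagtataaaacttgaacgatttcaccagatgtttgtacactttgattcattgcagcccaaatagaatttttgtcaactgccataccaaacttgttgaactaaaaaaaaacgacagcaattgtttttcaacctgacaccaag

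Among sulfur genes a lone strong rise stood beside falls. *SUL1*, the high-affinity sulfate permease, was at 31.9, 27.9 and 26.4 CPM in WT and 196, 182 and 187 CPM in Med16-AID (2.71 ± 0.12, adjusted p = 1.1e-10), a spread within Med16-AID far smaller than its distance from WT. With both strands counted together it was at 1.70. Of 33 sulfur and methionine genes, however, 4 were higher and 13 lower, with a median of -0.17, which was -0.087 without Med16-AID replicate 2 and -0.034 under scaling to library totals. The list had 6 higher and 8 lower under scaling to library totals. Among them *MUP1*, the methionine permease, was at 2072, 2159 and 2567 CPM in WT and 959, 954 and 989 CPM in Med16-AID (-1.23 ± 0.13, adjusted p = 1.7e-06), and *SAM1* (-0.81 ± 0.12, adjusted p = 4.7e-05), *MET2* (-0.77 ± 0.21, adjusted p = 0.006) and *CYS4* (-0.64 ± 0.08, adjusted p = 1.0e-05) fell. *MET8* (0.67 ± 0.16, adjusted p = 0.0023), *MET16* (0.60 ± 0.09, adjusted p = 6.7e-05) and *MET22* (0.38 ± 0.09, adjusted p = 0.0022) rose. The activator *MET4* fell (-0.57 ± 0.11, adjusted p = 4.5e-04), while *MET28*, *MET31* and *MET32* were at -0.31 (adjusted p = 0.15), 0.13 (adjusted p = 0.47) and 0.27 (adjusted p = 0.32).

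Glucose genes differed by type. The low-affinity hexose transporters that cells use in high glucose fell. *HXT1* was at 3409, 3587 and 4019 CPM in WT and 1272, 1303 and 1318 CPM in Med16-AID (-1.50 ± 0.11, adjusted p = 4.3e-08), and *HXT3* at 4396, 4488 and 4532 CPM in WT and 1783, 1845 and 1637 CPM in Med16-AID (-1.35 ± 0.09, adjusted p = 8.6e-09). Over the 17 tested genes of hexose transport and sensing 4 were higher and 9 lower, with a median of -0.34, which was -0.17 without Med16-AID replicate 1 and -0.21 under scaling to library totals. The repressors *MIG2* (-1.94 ± 0.12, adjusted p = 2.9e-09) and *MIG1* (-0.45 ± 0.08, adjusted p = 4.0e-04) and the co-regulator *MTH1* (-1.28 ± 0.16, adjusted p = 1.1e-05) fell, while *RGT1* was at -0.24 (adjusted p = 0.077) and *STD1* at -0.18 (adjusted p = 0.18). The members called higher on the sense strand, *HXT5*, *HXT6*, *HXT7* and *HXT8*, were low in all libraries, for example *HXT7* at 2.84, 3.58 and 2.42 CPM in WT and 12.1, 6.05 and 7.34 CPM in Med16-AID (1.53 ± 0.32, adjusted p = 0.0011), and *HXT6* and *HXT7* are near-identical, which leaves their split uncertain. With reads of both strands counted together, the difference of *HXT5* turned from 1.26 to -0.36, and that of *HXT8* went from 1.34 to 0.083 and did not pass the test. *HXT6* (1.06 ± 0.36, adjusted p = 0.022) missed the threshold without Med16-AID replicate 2 (0.94), WT replicate 1 (0.96) or WT replicate 3 (0.98).

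Of 25 glucose-repressed and gluconeogenic genes 11 were higher and 2 lower, with a median of 0.44. It had 7 higher and 2 lower without Med16-AID replicate 1 or Med16-AID replicate 2 and 5 higher and 2 lower without WT replicate 3. With both strands counted together, 11 of 26 were higher and 5 lower, with a median of 0.21. *POT1*, the largest rise of the list on the sense strand (2.04), was then at -0.52. *SIP4*, an activator of gluconeogenesis, was at 14.9, 14.6 and 16.1 CPM in WT and 41.3, 38.7 and 45.0 CPM in Med16-AID (1.45 ± 0.13, adjusted p = 5.3e-07), whereas *CAT8* and *ADR1* were at -0.25 (adjusted p = 0.17) and -0.12 (adjusted p = 0.35). *ICL1*, isocitrate lyase (-0.81 ± 0.15, adjusted p = 4.2e-04), and the carnitine acetyltransferase *YAT2* (-0.73 ± 0.08, adjusted p = 5.3e-06) were the members that fell. In glycolysis, 6 of 27 genes were higher and 10 lower. The kinase for use of poor sugars, *HXK1*, rose (1.36 ± 0.19, adjusted p = 4.1e-05) and that for glucose growth, *HXK2*, at 2696, 2675 and 2661 CPM in WT and 1799, 1841 and 1650.5 CPM in Med16-AID, fell (-0.60 ± 0.09, adjusted p = 6.4e-05). *PDC1*, the main pyruvate decarboxylase, fell (-0.59 ± 0.11, adjusted p = 5.9e-04) and *TDH1* rose (0.88 ± 0.15, adjusted p = 2.4e-04). In the citrate cycle list, 3 of 19 were higher and 7 lower, led by *CIT2*, the peroxisomal citrate synthase, at 1733, 1818 and 1705 CPM in WT and 495, 462 and 436 CPM in Med16-AID (-1.92 ± 0.10, adjusted p = 5.6e-10), whose groups were over 3-fold apart. The mitochondrial *CIT1* fell too (-0.84 ± 0.11, adjusted p = 1.5e-05). The maltose genes *MAL11* (-1.10 ± 0.15, adjusted p = 2.7e-05) and *MAL31* (-1.38 ± 0.26, adjusted p = 4.6e-04) fell, among 4 higher and 5 lower of 17 genes for maltose and galactose, and they belong to families of close copies whose reads can be split. That list had 8 higher and 5 lower under scaling to library totals, 1 higher and 5 lower without Med16-AID replicate 1, 2 higher and 4 lower without WT replicate 2 and 2 higher and 5 lower without WT replicate 3.

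A group of efflux and drug resistance genes was lower. *SNG1*, a resistance gene of the plasma membrane, was at 1853, 1895 and 2144 CPM in WT and 326, 308 and 292 CPM in Med16-AID (-2.67 ± 0.12, adjusted p = 5.7e-11). *YLL056C* was at 900.1, 839 and 915 CPM in WT and 171, 149 and 141 CPM in Med16-AID (-2.53 ± 0.10, adjusted p = 2.5e-11), and *YLR046C* at 95.6, 104 and 119.9 CPM in WT and 13.2, 14.9 and 19.0 CPM in Med16-AID (-2.76 ± 0.13, adjusted p = 1.5e-10). These 3 genes and *AZR1* have been tied to the zinc cluster factor Yrr1, and *YRR1* itself was at 466, 486 and 486 CPM in WT and 221, 255 and 238 CPM in Med16-AID (-1.01 ± 0.08, adjusted p = 1.1e-07). Some of the most abundant transcripts of the class followed. *FLR1*, a fluconazole exporter, was at 6295, 6489 and 6483 CPM in WT and 3299, 2909.7 and 2462 CPM in Med16-AID (-1.15 ± 0.10, adjusted p = 3.8e-07), and *SNQ2*, an ATP-driven exporter, at 6353, 7004 and 7405 CPM in WT and 3046, 3784 and 3383 CPM in Med16-AID (-1.02 ± 0.11, adjusted p = 2.3e-06). *ATR1*, an exporter, fell from 2683, 2671 and 2796 CPM in WT to 1263, 1229 and 1285 CPM (-1.11 ± 0.09, adjusted p = 8.3e-08). Over the 22 genes of the wider drug transport list 3 were higher and 8 lower, with a median of -0.15. The median was -0.056 without Med16-AID replicate 1, -0.25 without Med16-AID replicate 3, -0.094 without WT replicate 2 and -0.012 under scaling to library totals. The list had 5 higher and 6 lower under scaling to library totals. *PDR1* (-0.19, adjusted p = 0.12) and *PDR3* (-0.20, adjusted p = 0.13), the main regulators of that list, did not pass the test, *YOR1* (-0.65 ± 0.08, adjusted p = 1.7e-05) and *QDR2* (-0.80 ± 0.13, adjusted p = 1.4e-04) fell, and *TPO4* (0.72 ± 0.10, adjusted p = 4.5e-05) and *PDR17* (0.62 ± 0.09, adjusted p = 7.1e-05) rose. A set of 10 genes of the Yrr1 kind was drawn up after these values were seen, so that its count, 10 of 10 lower, is a description only.

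Several arginine synthesis genes were far lower. *ARG3*, ornithine carbamoyltransferase, was at 133, 125 and 126 CPM in WT and 16.5, 14.5 and 13.1 CPM in Med16-AID (-3.12 ± 0.23, adjusted p = 3.0e-08). *ARG1*, argininosuccinate synthase, was at 659, 739 and 679.5 CPM in WT and 126, 97.0 and 88.4 CPM in Med16-AID (-2.74 ± 0.23, adjusted p = 1.3e-07). *ARG56*, which encodes the kinase and reductase of the path, was at 261, 313 and 307 CPM in WT and 79.1, 88.3 and 82.6 CPM in Med16-AID (-1.82 ± 0.14, adjusted p = 4.3e-08). The distances were many times the spread within each strain. *ARG8* fell as well (-1.11 ± 0.17, adjusted p = 7.9e-05), while the arginine breakdown genes *CAR1* (0.65 ± 0.09, adjusted p = 3.1e-05) and *CAR2* (1.65 ± 0.34, adjusted p = 8.9e-04) rose, which makes 2 higher and 6 lower of 12 (4 higher and 6 lower under scaling to library totals). The regulators *ARG80* (-0.68 ± 0.18, adjusted p = 0.0066) and *ARG81* (-0.51 ± 0.09, adjusted p = 1.9e-04) fell. On the opposite strand of *ARG1*, Med16-AID held 17.0 ± 3.33 CPM (SD, n = 3) against 8.14 ± 1.19 CPM in WT.

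Branched-chain amino acid genes were lower as a group, with 0 higher and 10 lower of 12 and a median of -0.49. *LEU1*, isopropylmalate isomerase, was at 219, 247 and 220.2 CPM in WT and 104, 116 and 107 CPM in Med16-AID (-1.07 ± 0.08, adjusted p = 3.8e-08), and the reductoisomerase *ILV5* at 1477, 1576 and 1701 CPM in WT and 926, 955 and 829.8 CPM in Med16-AID (-0.81 ± 0.09, adjusted p = 6.7e-06). *OAC1* (-0.83 ± 0.12, adjusted p = 4.1e-05) and *BAT1* (-0.68 ± 0.09, adjusted p = 2.6e-05) fell with them, as did the regulator *LEU3* (-0.43 ± 0.10, adjusted p = 0.0018). Among 47 genes for other amino acids 2 were higher and 18 lower, with a median of -0.15. It had 7 higher and 11 lower under scaling to library totals, 0 higher and 17 lower without Med16-AID replicate 1 and 5 higher and 17 lower without Med16-AID replicate 3. Their general activator *GCN4* was at 865, 956 and 897 CPM in WT and 387, 578 and 498 CPM in Med16-AID (-0.89 ± 0.14, adjusted p = 7.2e-05), and the ammonia-fixing enzymes *GDH1* (-0.87 ± 0.12, adjusted p = 4.1e-05) and *GLN1* (-0.63 ± 0.11, adjusted p = 2.3e-04) fell. The Gcn4 core TGACTC lay on either strand of the 300-base windows of 10 of 12 (83.3%) arginine genes, 8 of 12 (66.7%) branched-chain genes and 26 of 47 (55.3%) genes of other amino acids, against 443 of 5552 (7.98%) of all genes. It was about as frequent among the genes called higher, 99 of 1469 (6.74%), as among those called lower, 101 of 1302 (7.76%). The windows of *ARG1* (chrXV:218911-219210, plus strand) and *ILV5* (chrXII:839254-839553, minus strand) show it in capitals, as the fallen members with a match and the largest change.
ARG1: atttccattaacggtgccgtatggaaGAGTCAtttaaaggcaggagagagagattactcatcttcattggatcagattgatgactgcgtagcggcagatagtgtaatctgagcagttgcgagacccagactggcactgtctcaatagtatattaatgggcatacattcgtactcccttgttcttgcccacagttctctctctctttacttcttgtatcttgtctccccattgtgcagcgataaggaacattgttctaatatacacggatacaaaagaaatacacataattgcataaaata
ILV5: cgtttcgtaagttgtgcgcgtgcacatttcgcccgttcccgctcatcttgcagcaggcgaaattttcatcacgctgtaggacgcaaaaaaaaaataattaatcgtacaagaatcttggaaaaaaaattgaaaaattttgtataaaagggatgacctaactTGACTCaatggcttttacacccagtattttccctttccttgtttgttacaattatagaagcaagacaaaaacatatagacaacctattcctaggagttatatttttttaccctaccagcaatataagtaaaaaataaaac

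Genes for the uptake and use of nitrogen were lower on balance, 5 higher and 17 lower of 36, with a median of -0.28. The ammonium carrier *MEP2* was at 140.3, 134 and 114 CPM in WT and 57.2, 49.5 and 47.0 CPM in Med16-AID (-1.34 ± 0.11, adjusted p = 9.7e-08). The permeases *DIP5* (-1.24 ± 0.17, adjusted p = 2.5e-05) and *AGP1* (-1.03 ± 0.15, adjusted p = 4.4e-05) fell, and so did the activator *GAT1* (-0.90 ± 0.10, adjusted p = 2.8e-06), whereas *GLN3* and *DAL80* were at -0.25 (adjusted p = 0.12) and 0.04 (adjusted p = 0.92). Among the members that rose, *PUT1* (1.32 ± 0.12, adjusted p = 2.6e-07) breaks down proline, *UGA1* (0.78 ± 0.11, adjusted p = 4.7e-05) and *UGA2* (1.02 ± 0.15, adjusted p = 4.9e-05) break down γ-aminobutyrate, and *DAL4* (1.38 ± 0.21, adjusted p = 6.1e-05, and 0.75 with both strands counted together) imports allantoin. The pyrimidine list had 4 higher and 7 lower of 15 genes. Among those lower were the uracil permease *FUR4*, at 183, 197 and 211 CPM in WT and 67.7, 83.4 and 83.3 CPM in Med16-AID (-1.33 ± 0.10, adjusted p = 5.9e-08), the nucleobase permease *FCY2* (-0.94 ± 0.09, adjusted p = 8.5e-07) and *URA2*, the first enzyme of pyrimidine synthesis (-0.83 ± 0.11, adjusted p = 1.5e-05). The 4 that were higher were the salvage enzymes *FUR1* (0.32 ± 0.08, adjusted p = 0.0042), which turns uracil into its nucleotide, and *FCY1*, cytosine deaminase (0.51 ± 0.09, adjusted p = 2.9e-04), and the synthesis genes *URA8* (0.44 ± 0.10, adjusted p = 0.0017) and *URA10* (0.70 ± 0.17, adjusted p = 0.0036). As 4tU is a uracil analog, these RNA levels stand here beside the labeling as a measured fact, and their part in any result was not tested. The purine list had 2 higher and 9 lower of 25 genes (5 higher and 3 lower under scaling to library totals).

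Ribosome assembly genes were lower as a group. Of 74 genes for ribosome biogenesis and RNA polymerase I, 0 were higher and 56 lower, with a median of -0.40, and none fell more than 2-fold. The list median was -0.56, -0.36 and -0.28 in the 3 Med16-AID libraries against -0.06 to 0.07 in WT. *UTP10*, of the small subunit processome, was at 722, 846 and 878 CPM in WT and 389, 519 and 513 CPM in Med16-AID (-0.78 ± 0.13, adjusted p = 2.1e-04). *RPA135*, a subunit of RNA polymerase I, was at 798, 949 and 947 CPM in WT and 473, 625 and 576 CPM in Med16-AID (-0.69 ± 0.12, adjusted p = 1.9e-04), and *UTP15* (-0.79 ± 0.09, adjusted p = 8.4e-06) and the helicase *DBP7* (-0.70 ± 0.11, adjusted p = 1.4e-04) followed. The share lower was far above the 23.2% of all genes. Under scaling to library totals, 4 of the 74 were higher and 42 lower.

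This class is known for a pair of promoter elements, GATGAG (PAC) and AAAATTTT (the core of RRPE, its own reverse complement). They lay in the 300-base windows of 70 of 74 (94.6%) and 59 of 74 (79.7%) list members, against 1053 of 5552 (19.0%) and 546 of 5552 (9.83%) of all genes. AAAATTTT lay in 247 of 1302 (19.0%) of all genes called lower and 62 of 1469 (4.22%) of those called higher. The window of *UTP10* (chrX:217310-217609, minus strand), which holds both, shows them in capitals.
UTP10: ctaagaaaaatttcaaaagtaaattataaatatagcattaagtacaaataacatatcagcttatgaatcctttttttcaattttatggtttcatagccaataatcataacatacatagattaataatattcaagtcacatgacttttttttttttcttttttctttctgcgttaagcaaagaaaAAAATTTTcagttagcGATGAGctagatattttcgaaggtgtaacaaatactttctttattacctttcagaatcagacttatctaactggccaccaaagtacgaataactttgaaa

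The genes of the ribosome itself behaved otherwise. Of 57 small subunit genes 3 were higher and 12 lower, and of 81 large subunit genes 1 was higher and 15 lower, both under the share of all genes lower. Their medians, -0.10 and -0.09, came mostly from 1 library: the small subunit median was -0.00, -0.02 and -0.30 and the large subunit median -0.00, -0.01 and -0.29 in the 3 Med16-AID libraries. Without Med16-AID replicate 3 the medians were 0.00 for both, without replicate 1 they were -0.15 and -0.14, without replicate 2 that of the large subunit was -0.13, and they turned to 0.03 and 0.05 under scaling to library totals. The large subunit list had 11 higher and 4 lower under scaling to library totals and 6 higher and 10 lower without Med16-AID replicate 3. The small subunit list had 7 higher and 7 lower under scaling to library totals, 0 higher and 14 lower without Med16-AID replicate 1, 1 higher and 12 lower without Med16-AID replicate 2, 6 higher and 10 lower without Med16-AID replicate 3, 1 higher and 13 lower without WT replicate 1, 0 higher and 10 lower without WT replicate 2 and 0 higher and 9 lower without WT replicate 3. Mitochondrial ribosome genes went the opposite way to ribosome assembly, with 43 higher and 0 lower of 65 and a median of 0.36, led by *MRPL33* at 46.6, 43.7 and 41.8 CPM in WT and 84.6, 72.4 and 73.7 CPM in Med16-AID (0.80 ± 0.11, adjusted p = 2.4e-05). For the respiratory chain, 4 of 40 were higher and 12 lower, with a median of 0.03. The median turned to -0.063 without Med16-AID replicate 1, and was 0.076 without Med16-AID replicate 2, 0.060 without Med16-AID replicate 3, 0.020 without WT replicate 1 and 0.17 under scaling to library totals. Its activator *HAP4* fell (-0.71 ± 0.15, adjusted p = 0.001) along with the dehydrogenase *NDE1* (-0.65 ± 0.08, adjusted p = 1.4e-05) and *CYT1* (-0.65 ± 0.13, adjusted p = 6.4e-04), while *QCR8* (0.68 ± 0.10, adjusted p = 7.4e-05) and *COX7* (0.50 ± 0.13, adjusted p = 0.0049) rose. The respiratory list had 15 higher and 9 lower under scaling to library totals, 2 higher and 12 lower without Med16-AID replicate 1, 8 higher and 10 lower without Med16-AID replicate 3 and 2 higher and 10 lower without WT replicate 1 or WT replicate 3.

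**Figure D4:**
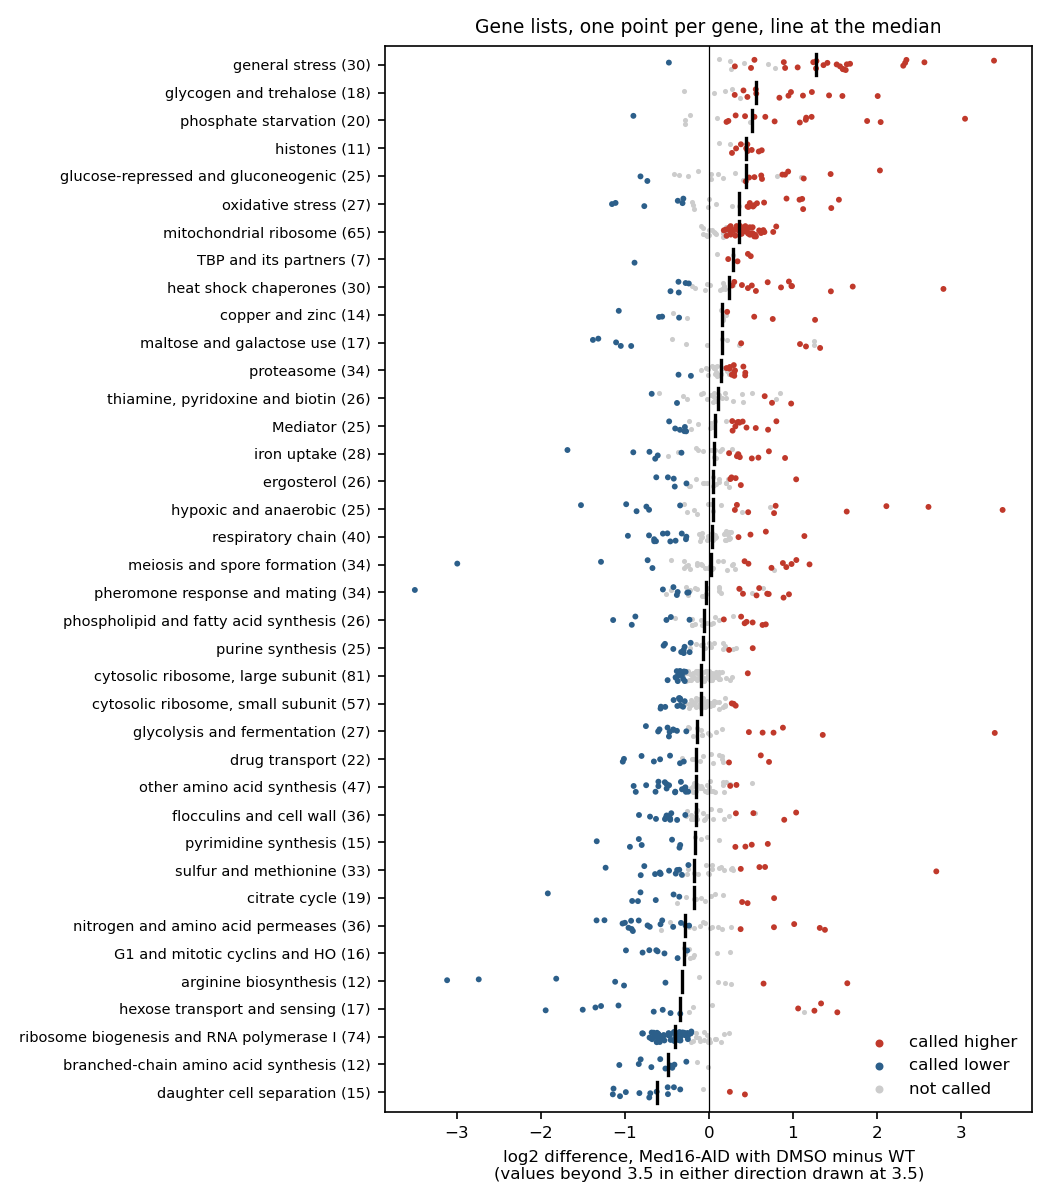
Log2 difference between Med16-AID with DMSO and WT of every tested member of each gene list (number tested in brackets), with called members in red (higher) or blue (lower) and a line at the list median. The marker loci and the Yrr1-type set are not drawn, and values beyond 3.5 are drawn at 3.5. Of the lists drawn, general stress genes lie highest, with a median of 1.28, and daughter cell separation genes lowest, with a median of -0.62.

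Genes of the cell division cycle shifted too. Of 15 daughter cell separation genes, which act as mother and daughter part after mitosis, 12 were lower and 2 higher, with a median of -0.62. *CTS1*, the chitinase that parts mother and daughter, was at 674, 735 and 705 CPM in WT and 275, 399.8 and 391 CPM in Med16-AID (-0.99 ± 0.14, adjusted p = 4.4e-05). *DSE4* (-1.14 ± 0.13, adjusted p = 7.6e-06), *EGT2* (-1.13 ± 0.16, adjusted p = 4.2e-05) and *DSE2* (-1.06 ± 0.14, adjusted p = 1.8e-05) fell likewise. The fall was steepest in the first Med16-AID library, where the list median was -0.95 against -0.56 and -0.40. Of 16 genes for cyclins and the *HO* endonuclease, 8 were lower and 0 higher, with *CLB1* at 176, 167 and 187 CPM in WT and 72.3, 84.9 and 111 CPM in Med16-AID (-0.99 ± 0.13, adjusted p = 1.5e-05) and *CLN2* (-0.79 ± 0.11, adjusted p = 4.1e-05), *CLB2* (-0.71 ± 0.12, adjusted p = 2.0e-04) and *HO* (-0.62 ± 0.10, adjusted p = 1.0e-04) also lower. The G1 regulator *SWI4* was at -0.28 (adjusted p = 0.15). Histone genes rose, 9 of 11 called higher and 0 lower, with a median of 0.45. *HHF1* (0.63 ± 0.13, adjusted p = 0.0011) and *HHF2* (0.60 ± 0.13, adjusted p = 0.0013), which encode the same histone H4, and *HTB1* (0.46 ± 0.11, adjusted p = 0.0029) were among them. The share of cells in each stage was not measured.

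In mating, *BAR1* was the lone large change. Of 34 tested pheromone response genes 8 were higher and 7 lower, with *AGA2*, an agglutinin subunit, at 31.7, 26.6 and 34.3 CPM in WT and 69.0, 57.2 and 53.9 CPM in Med16-AID (0.96 ± 0.14, adjusted p = 6.7e-05), and with *STE12*, the transcription factor of the pathway, lower (-0.42 ± 0.10, adjusted p = 0.0028). It had 14 higher and 3 lower under scaling to library totals and 8 higher and 4 lower without Med16-AID replicate 1. Some markers of mating type were picked apart from the rule for named genes. *STE2*, the α-factor receptor of a cells, was at 772 ± 26.8 CPM (SD, n = 3) in WT and 654 ± 24.3 CPM in Med16-AID. *MFA2*, a gene for a-factor, was at 249 ± 6.27 CPM (SD, n = 3) in WT and 245 ± 14.7 CPM in Med16-AID. Both were thus expressed in both strains, whereas *BAR1* had no count in Med16-AID. *STE3*, the receptor of α cells, was at 4.00 ± 1.37 CPM (SD, n = 3) in WT and 6.22 ± 0.984 CPM in Med16-AID. Cell wall and flocculin genes had 4 higher and 12 lower of 36, among them *PIR1* (-0.83 ± 0.12, adjusted p = 4.2e-05) and *GAS1* (-0.52 ± 0.09, adjusted p = 2.8e-04), both lower. It had 7 higher and 10 lower under scaling to library totals. Of 34 tested meiosis genes 8 were higher and 4 lower, and *SPO19*, a spore membrane protein, was at 7.81, 6.39 and 7.48 CPM in WT and 0.879, 1.08 and 0.688 CPM in Med16-AID (-2.99 ± 0.38, adjusted p = 1.4e-05). The meiosis list had 4 higher and 4 lower without WT replicate 1 and 5 higher and 3 lower without WT replicate 3. The remaining leading falls, *RRT5* (-3.61 ± 0.39, adjusted p = 3.0e-06), *YBR032W* (-2.63 ± 0.26, adjusted p = 1.3e-06) and *YDR344C* (-2.15 ± 0.27, adjusted p = 1.1e-05), were below 30 CPM in every library.

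Fatty acid synthesis fell at its main enzymes. *OLE1*, the fatty acid desaturase, was at 2346, 2416 and 2349 CPM in WT and 682, 854 and 941 CPM in Med16-AID (-1.52 ± 0.11, adjusted p = 2.2e-08). *ACC1*, acetyl-CoA carboxylase, was at 938, 1051 and 1063 CPM in WT and 356, 516 and 514 CPM in Med16-AID (-1.14 ± 0.16, adjusted p = 3.2e-05), and the synthase genes *FAS1* (-0.92 ± 0.15, adjusted p = 1.3e-04) and *FAS2* (-0.87 ± 0.10, adjusted p = 8.3e-06) followed. All 3 WT libraries lay above all 3 Med16-AID libraries for each of them. The lipid list as a whole was mixed, 7 higher and 6 lower of 26. These shares, 26.9% and 23.1%, were near the 26.0% and 23.2% of all genes. *FAA1* (0.68 ± 0.08, adjusted p = 1.0e-05) and the regulator *INO4* (0.64 ± 0.14, adjusted p = 0.0012) were among those higher. Ergosterol genes had 5 higher and 5 lower of 26, from *ERG25* (-0.62 ± 0.09, adjusted p = 4.3e-05) to *ERG28* (1.04 ± 0.13, adjusted p = 1.5e-05). It had 12 higher and 4 lower under scaling to library totals, 9 higher and 5 lower without Med16-AID replicate 3 and 3 higher and 5 lower without WT replicate 3.

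Genes that oxygen and heme control split by gene. *CYC7*, the minor cytochrome c, was at 5.68, 2.81 and 3.74 CPM in WT and 25.9, 24.4 and 25.5 CPM in Med16-AID (2.62 ± 0.29, adjusted p = 3.1e-06), and *COX5B*, the hypoxic form of a cytochrome oxidase subunit, at 17.0, 15.6 and 10.6 CPM in WT and 73.9, 53.3 and 59.2 CPM in Med16-AID (2.12 ± 0.17, adjusted p = 7.3e-08, and 1.38 with both strands counted together). *ANB1*, the hypoxic translation factor gene, had 40 counts in Med16-AID against 1 in WT, a ratio of 37.5 with a 95% counting interval of 6.35 to 1517, and a difference of 3.55 with both strands counted together. These 3 rose, as did *AAC3* (1.64 ± 0.30, adjusted p = 3.3e-04), while *OLE1*, *YHB1* (-0.86 ± 0.11, adjusted p = 1.4e-05), *TIR4* (-0.98 ± 0.25, adjusted p = 0.0044) and the heme-responsive activator *HAP1* (-0.74 ± 0.15, adjusted p = 8.8e-04) fell. The list had 9 higher and 6 lower of 25, and the repressor *ROX1* was at -0.01 (adjusted p = 0.97). Iron genes had 8 higher and 6 lower of 28, with *AFT1* lower (-0.64 ± 0.16, adjusted p = 0.0041) and *AFT2* at 0.07 (adjusted p = 0.58), and copper and zinc genes 4 and 4 of 14, with the zinc regulator *ZAP1* at 47.1, 56.3 and 54.3 CPM in WT and 22.6, 24.6 and 27.8 CPM in Med16-AID (-1.07 ± 0.14, adjusted p = 1.9e-05) and the copper metallothionein *CRS5* higher (1.27 ± 0.24, adjusted p = 4.6e-04). The copper and zinc list had 7 higher and 3 lower under scaling to library totals, 2 higher and 4 lower without Med16-AID replicate 1 or WT replicate 1 and 2 higher and 3 lower without WT replicate 3. Genes for thiamine, pyridoxine and biotin had 3 higher and 2 lower of 26. They had 6 higher and 2 lower under scaling to library totals and 1 higher and 2 lower without Med16-AID replicate 1. Proteasome genes had 11 higher and 2 lower of 34. They had 23 higher and 0 lower under scaling to library totals, 4 higher and 0 lower without Med16-AID replicate 1, 7 higher and 2 lower without Med16-AID replicate 2 and 4 higher and 1 lower without WT replicate 2 or WT replicate 3.

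Of the 25 Mediator subunits 11 were higher and 6 lower, with a median of 0.07. The median was 0.16 without Med16-AID replicate 1, 0.17 without Med16-AID replicate 3, 0.12 without WT replicate 2, 0.13 without WT replicate 3 and 0.21 under scaling to library totals. The subunits that rose most were *MED11* (0.81 ± 0.15, adjusted p = 4.9e-04) and *CSE2* (0.71 ± 0.13, adjusted p = 3.1e-04), and those that fell most were *RGR1* (-0.47 ± 0.09, adjusted p = 3.9e-04), the scaffold Med14, and *SSN3* (-0.40 ± 0.09, adjusted p = 0.0015), the kinase. *GAL11*, the tail subunit Med15, was at 184, 210.3 and 187 CPM in WT and 135, 161 and 179 CPM in Med16-AID (-0.29 ± 0.12, adjusted p = 0.0498), at the threshold, and missed it when any library but Med16-AID replicate 3 was left out (-0.33 to -0.19) and under scaling to library totals (-0.16). The Mediator list had 11 higher and 2 lower under scaling to library totals, 8 higher and 2 lower without Med16-AID replicate 1 and 8 higher and 3 lower without WT replicate 2. *MOT1*, which strips the TATA-binding protein from promoters, fell from 289, 309.8 and 328 CPM in WT to 140.3, 179 and 183 CPM (-0.88 ± 0.11, adjusted p = 1.0e-05). Of 7 genes for TBP and its partners 4 were higher and 1, *MOT1*, lower. The TBP regulators *BUR6* (0.47 ± 0.10, adjusted p = 0.001) and *NCB2* (0.34 ± 0.11, adjusted p = 0.016), rose, as did *SUA7*, the initiation factor TFIIB (0.50 ± 0.08, adjusted p = 1.7e-04).

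Degron and non-degron strains of the series were compared a second time with Med16 depleted or deleted, as Med16-AID with 3-IAA against *med16*Δ, from 6 other libraries. Here 3181 genes (55.7%) were called, 1660 (29.1%) higher and 1521 (26.6%) lower in Med16-AID. Of the 1482 genes called higher with DMSO, 1119 were called higher here as well, which is 75.5% of the first list and 67.4% of the second. Of the 1324 called lower, 955 were called lower again, or 72.1% and 62.8%. Across the 5710 genes Pearson's r of the 2 differences was 0.80 and Spearman's rho 0.77, given as a description since genes are not replicates and both sets share the degron strain, the run and the fit. *med16*Δ differs from WT in its lys2 and med16Δ::LEU2 alleles and 3-IAA from DMSO in the auxin, so that the second comparison is not a repeat of the first.

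A test of the difference between the 2 comparisons, an interaction in the same fit, found 381 genes (6.67%). The general stress list had 22 higher and 1 lower here and a median of 1.29. The genes *SUL1* (3.28, adjusted p = 4.1e-11), *PHO89* (3.36, adjusted p = 2.5e-10), *SNG1* (-2.37, adjusted p = 1.6e-10), *ARG1* (-2.85, adjusted p = 4.0e-08) and *HXT1* (-1.58, adjusted p = 1.4e-08) did not pass the test of the difference, with adjusted p of 0.1, 0.52, 0.3, 0.89 and 0.83. *SPL2* had the smallest p among the phosphate genes, at 6.46 (adjusted p = 6.2e-10) against 2.05 (adjusted p of the difference = 3.9e-05). The chaperone *SSA4* was at 1.72 with DMSO and at 3.92 (adjusted p = 3.0e-08) here, with an adjusted p of the difference of 0.0018. Its mean level was 1798 CPM with DMSO and 1613 with 3-IAA, against 548 in WT and 105 in *med16*Δ. For *HSP42* the values were 0.99 and 2.81 (adjusted p = 2.5e-10), with an adjusted p of the difference of 2.0e-05, and *HXK1* and *TSL1* passed as well, with 3.8e-04 and 3.4e-04.

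Other genes were lower in the undepleted pair alone or turned. *MEP2* was at 0.06 (adjusted p = 0.7), *GAT1* turned to 0.57 (adjusted p = 2.4e-04), *LEU1* was at -0.12 (adjusted p = 0.22) and *AGP1* at -0.01 (adjusted p = 0.97), with adjusted p of the difference of 3.7e-05, 1.0e-05, 5.1e-05 and 0.0056. *MTH1* (0.11, adjusted p = 0.55), *SAM1* (0.17, adjusted p = 0.23), *MUP1* (-0.19, adjusted p = 0.2) and *CTS1* (-0.14, adjusted p = 0.42) were near 0 there, with adjusted p of the difference of 7.9e-04, 0.0014, 0.0014 and 0.015. By list, sulfur genes went from 4 higher and 13 lower with DMSO to 23 higher and 2 lower, and daughter cell separation from 2 and 12 to 2 and 4. Respiratory chain genes went from 4 and 12 to 0 and 32, while ribosome assembly genes were lower in both, at 56 and 69 of 74. Relative to the WT mean, the sulfur median per library was -1.27 to -0.97 in *med16*Δ, -0.54 to -0.18 in Med16-AID with 3-IAA and -0.23 to -0.12 with DMSO. For daughter cell separation it was -0.83 to -0.74 in *med16*Δ, -0.93 to -0.81 with 3-IAA and -0.95 to -0.40 with DMSO. For the respiratory chain it was 0.59 to 0.85 in *med16*Δ, -0.03 to 0.14 with 3-IAA and -0.10 to 0.16 with DMSO. The counts thus also follow the level of *med16*Δ. These counts by list were not tested against each other.

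**Figure D5:**
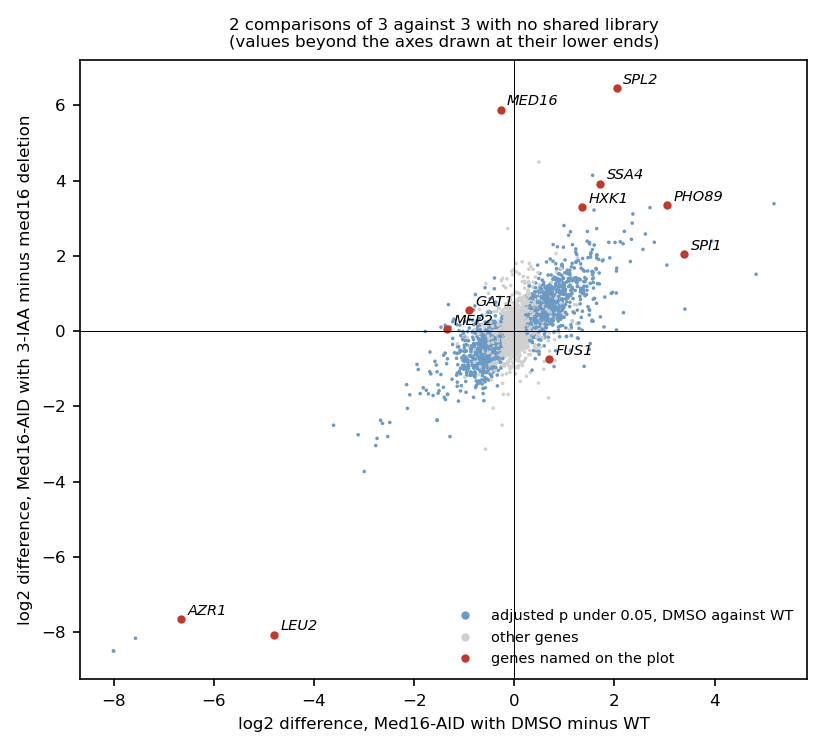
Log2 difference of Med16-AID with 3-IAA minus *med16*Δ (y axis) against that of Med16-AID with DMSO minus WT (x axis), one point per gene, with no library shared between the axes. *SPI1*, *PHO89* and *AZR1* lie far out on both axes, *SPL2* is higher on the y axis, and *MEP2* is low on the x axis alone.

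The other degron strains, whose parent is the same, were sequenced with DMSO in another run, so that their levels are given with no test, and run and strain cannot be told apart. *SUL1* had 0.812 to 1.48 CPM in Med15-AID, 3.76 to 4.03 in Med15/16-AID and 1.40 to 2.53 in Mot1/Med16-AID, against 182 to 197 in Med16-AID and 27.0 to 32.7 in WT. *PHO89* had 7.11 to 10.6, 6.93 to 7.64 and 1.80 to 4.00 CPM in the same strains, and *HSP30* 71.7 to 103, 58.1 to 84.1 and 92.4 to 113 CPM. For these 3 genes the levels of the other degron strains lay below WT. *CYC7*, by contrast, had 47.1 to 66.1, 51.3 to 65.6 and 47.4 to 59.0 CPM, all above WT and above Med16-AID. *SNG1* had 446 to 480.0, 535 to 627 and 868 to 1060.4 CPM, between Med16-AID and WT. The arginine genes did not move alike. *ARG1* had 51.4 to 62.5, 834 to 1028 and 721 to 766 CPM, against 89.0 to 127 in Med16-AID and 675 to 755 in WT. Only Med15-AID thus lay below WT for *ARG1*. *ARG3* had 7.59 to 10.9, 46.5 to 58.3 and 64.4 to 82.3 CPM, all below the 127 to 136 CPM of WT. *LEU2* was low in all 3, at 1.11 to 1.67, 5.34 to 7.21 and 10.7 to 13.2 CPM.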

How the data were processed

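The 30 libraries were deposited as counts per gene, which the authors made by mapping paired-end reads to sacCer3 with STAR 2.6.1a and its gene counting. The annotation release is not given in the sources used here. The sense-strand counts (reverse-stranded kit) were used, lines that name no gene were left out, and 6008 of 6692 gene IDs matched RefSeq R64, from which coordinates and the windows of 300 bases before the start codon were read. The study scaled by its spike-in within its own comparisons, which do not include the one made here, so edgeR 4.0.16 (R 4.3.3) with TMM factors was used on the 12 libraries of the run, grouped by their titles, with filterByExpr (5710 genes kept), quasi-likelihood F-tests and Benjamini-Hochberg adjustment at 0.05. CPM are counts scaled to a TMM-scaled library total of 1000000, and a difference is Med16-AID minus WT on the log2 scale with its standard error, at a prior count of 0.125. In exact permutation tests 3 against 3 libraries cannot go below a p of 0.1, so single genes were tested in the fit across all genes.

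The 3 libraries of a group are biological replicates in the study's methods, and p-values measure the spread between them. Each group stands for a single strain, so the p-values do not cover the spread between separately built strains. Replicates differed by more than counting noise, and more so in Med16-AID. The chi-square per gene between 2 replicates was 6.38 to 15.9 in Med16-AID and 2.33 to 4.29 in WT. The fit shared its estimate of the spread over all groups, so it does not hold this gap. Genes named in the text were the listed marker loci and their neighbours, the 12 largest rises and falls with at least 5 CPM and no overlap between groups, up to 4 called members per direction of each list, and regulators. The members, lists and rules were chosen with earlier results of these data known, and the list of Yrr1-type genes was drawn up after the values were seen. In list medians by library 0.5 CPM was added. On simulated counts for this comparison, over 5692 genes, 100 genes were changed by 0.5 and 100 by 1 on the log2 scale. Rises and falls were balanced, all other genes were unchanged, and the noise was drawn from the fitted dispersions. The test found 80% and 100% of the changed genes, with 12 false calls. In the data 49.1% of genes were called and their split rests on the scaling, so the simulation cannot give the rate of false calls there. Alternatives were DESeq2 size factors, library totals, the DESeq2 1.42.0 Wald test, other filters, fits of only the groups compared, a replicate block, unstranded counts and leaving out each library. Counting intervals (95%, exact conditional) and floors of 3 counts cover counting error only.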

Additional observations from a re-analysis of the deposited data

Results flagged for a closer look

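The difference between the comparison with DMSO against WT and that with 3-IAA against *med16*Δ passed the interaction test for 7 genes of the marker loci and leading changes. *MED16*, deleted in *med16*Δ, differed by -6.16 on the log2 scale (edgeR adjusted p = 3.3e-13). *LEU2*, which *med16*Δ carries as the deletion marker, differed by 3.27 (adjusted p = 3.8e-04). *LYS2*, mutant in *med16*Δ, differed by -1.53 (adjusted p = 2.0e-05). *GPD1* differed by -0.80 (adjusted p = 0.0031), at -0.75 with DMSO and 0.05 with 3-IAA. *SPI1* differed by 1.34 (adjusted p = 0.012), *STF2* by -0.75 (adjusted p = 0.041) and *AZR1* by 1.01 (adjusted p = 0.043), each called in the same direction in both comparisons.

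Reads on the opposite strand, which the sense comparison does not use, were above WT in every Med16-AID library, with a mean of at least 30 counts, at 3 of the leading genes. The antisense level with DMSO was 19.4 CPM at *SOL4* against 2.08 CPM in WT, 17.6 CPM at *AZR1* against 4.22 CPM, and 17.0 CPM at *ARG1* against 8.14 CPM. With fewer counts, *GAD1* also stood above WT, at 6 to 9 antisense counts per library against 0 to 2, whereas *SUL1* was lower, at 18.6 CPM against 35.2 CPM in WT. These levels were not tested.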

How the results depend on the processing

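Scaling set the balance of the calls. With library totals in place of TMM, 2163 genes were called higher and 787 lower, in place of 1482 and 1324, the median of all genes moved by over 0.1 to 0.15, and 18 of 283 named calls were lost. The list medians moved with it and 5 turned, those of the large (0.05) and small (0.03) ribosomal subunits, pheromone response (0.10), phospholipid synthesis (0.08) and purine synthesis (0.06). The 7 other alternatives that kept all libraries gave 1389 to 1467 higher and 1271 to 1392 lower, of which the replicate block gave 1435 and 1278. Leaving out each library in turn gave 1104 to 1504 higher and 1023 to 1381 lower, and between 8 and 35 of the named calls were lost, the most without Med16-AID replicate 1. The second comparison gave 3075 to 3200 calls, 3095 of them with the block. Same-numbered libraries correlated at 0.31, 0.079 and 0.13 in their deviations, and Med16-AID replicate 2 correlated best with WT replicate 3, so the numbers were not taken to pair the libraries.

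Some named genes changed sign. With both strands counted together, which adds the opposite strand, *SNO1* was at -0.085, *HXT5* at -0.36, *GAL10* at -0.30, *POT1* at -0.52, *INH1* at 0.018, *FUS1* at -1.30, *DAL80* at -0.085 and *ROX1* at 0.0007. With library totals, *ADR1* was at 0.010, *ROX1* at 0.13, *INO2* at 0.0495 and *YTP1* at 0.081. With 1 library left out, genes that were not called ran from -0.051 to 0.077 (*PHO2*), from -0.16 to 0.12 (*ROX1*), from -0.13 to 0.042 (*YTP1*) and from -0.020 to 0.11 (*NFS1*), and the cause was not tested. Below about 5 CPM, values rest on few counts per library.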
